A study of Mus musculus with 8 samples.

Results

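The Egr, Nr4a and Klf early response factors were followed here in activated muscle stem cells (ASCs) with and without mitofusin 2. The 10 members were the genes of the deposited table with the symbols Egr1, Egr2, Egr3, Nr4a1, Nr4a2, Nr4a3, Klf2, Klf4, Klf6 and Ier2, out of 18877 genes, and all 10 were present and passed the filter for testing. They were taken by name, and the list was chosen with earlier results of these data known.

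The study asked which transcripts differ in ASCs that lack Mfn2, the gene of an outer membrane protein that fuses mitochondria and holds them to the endoplasmic reticulum. Each of 4 wild-type and 4 mfn2-/- libraries came from mice that carried a mitochondrial Dendra2 fluorescent protein under the control of Pax7-Cre(ERT2), so that tamoxifen marked the Pax7-expressing stem cells of muscle, and in the mfn2-/- group the same driver deleted a conditional Mfn2 allele. All mice, controls included, received tamoxifen at 75 mg/kg daily for 5 days and, 2 days later, 50 uL of 1.2% BaCl2 in the tibialis anterior muscle, and living CD34-, Dendra2+ cells were sorted after a further 2 days. Ages, and whether each library was a separate animal, are not given in the labels, so p-values measure only the spread between these libraries. Muscle was digested with enzymes before the sort, and transcripts made in the animal and transcripts made during the digest cannot be told apart.

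Early response factors are transcription factors whose genes are switched on within minutes of a growth factor, stress or calcium signal, without new protein being made first. ERK signaling through the serum response factor and its partners drives the Egr genes, cyclic AMP and calcium signaling through CREB drives the Nr4a genes, and the MEK5-ERK5 kinase arm through MEF2 drives Klf2 and Klf4. EGR proteins are zinc finger activators held in check by the NAB co-repressors that they themselves induce, NR4A proteins are orphan nuclear receptors that act without a known activating ligand, and KLF proteins bind GC-rich and CACCC sequences. Such genes are transcribed briefly in stem cells leaving quiescence, and NR4A proteins are known for controlling sugar metabolism in muscle fibers.

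In mfn2-/- ASCs, Klf6, Egr2 and Klf4 were higher, with 1.92, 1.91 and 1.83 times the wild-type mean, and for these genes no mfn2-/- library overlapped a wild-type one. These 3 of 10 members were called (limma adjusted p under 0.05 over the 11754 genes tested), all of them higher, where 10.4% of all genes were called, 3.99% higher and 6.36% lower. No overlap between the groups was found for the same 3 members, beside 19.5% of all genes and, in the higher direction, 7.36%. The other 7 members did not pass the test. Egr1, by far the most abundant, changed by -0.01 on the log2 scale (SE 0.39), and its mfn2-/- libraries lay both far above and far below the wild-type ones. Within each genotype the libraries formed pairs that differed in Y-linked transcripts. Between these pairs 6 of 10 members did not overlap in wild-type, beside 22.2% of all genes in that direction and 24.3% in the other. In mfn2-/- ASCs it was 7 of 10, beside 26.5% and 18.8%, and Nr4a2 was in neither count. The higher pair was replicates 1 and 2 in both genotypes. An interaction of genotype and Y-linked reads was called for Egr1 and Egr2 in the test over all genes. A shift of replicates 1 and 2 against 3 and 4 shared by both genotypes would give the same term and cannot be told apart from it.

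The upstream sequence of members is shown to let the letters be compared across the family, since the Nr4a genes share a run of sites not found in the stretches searched for Klf6 and Egr2. For 7 of the 10 members a start site is given by RefSeq (GRCm38.p6), and the 250 bases before it were searched. For Egr2, 5 starts are listed, and only the window at the position given below was searched. The Egr1, Egr3 and Ier2 starts were not analysed here. Printed below are windows 5′ to 3′ on the strand of the gene, with bases that GENCODE M21 counts as exon left out, and the capitals mark the half-site of the cyclic AMP response element (TGACG, or CGTCA on the other strand). Egr2, Klf4 and Klf6 are the members that passed the test, and the Nr4a genes are those with the most sites.
Egr2, chr10:67535249-67535474, plus strand: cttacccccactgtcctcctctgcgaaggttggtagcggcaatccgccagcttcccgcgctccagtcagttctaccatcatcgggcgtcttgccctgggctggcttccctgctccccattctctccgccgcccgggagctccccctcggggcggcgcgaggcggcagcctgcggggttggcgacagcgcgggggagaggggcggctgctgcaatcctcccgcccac
Klf4, chr4:55532476-55532725, minus strand: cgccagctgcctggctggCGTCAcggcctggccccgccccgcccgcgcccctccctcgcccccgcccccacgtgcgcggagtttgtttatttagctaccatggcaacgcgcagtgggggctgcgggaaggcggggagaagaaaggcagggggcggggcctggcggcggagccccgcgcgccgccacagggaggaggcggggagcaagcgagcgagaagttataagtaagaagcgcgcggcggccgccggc
Klf6, chr13:5861239-5861481, plus strand: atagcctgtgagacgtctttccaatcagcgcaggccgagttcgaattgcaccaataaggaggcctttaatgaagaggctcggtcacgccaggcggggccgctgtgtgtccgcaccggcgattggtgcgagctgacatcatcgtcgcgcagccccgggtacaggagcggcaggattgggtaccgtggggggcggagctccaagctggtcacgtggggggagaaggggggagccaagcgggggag
Nr4a1, chr15:101266596-101266845, plus strand: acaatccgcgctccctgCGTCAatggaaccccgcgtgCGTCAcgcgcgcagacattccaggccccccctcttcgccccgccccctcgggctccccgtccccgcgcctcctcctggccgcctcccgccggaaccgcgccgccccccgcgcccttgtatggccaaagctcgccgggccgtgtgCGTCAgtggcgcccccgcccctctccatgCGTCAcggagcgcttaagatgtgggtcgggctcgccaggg
Nr4a2, chr2:57124004-57124253, minus strand: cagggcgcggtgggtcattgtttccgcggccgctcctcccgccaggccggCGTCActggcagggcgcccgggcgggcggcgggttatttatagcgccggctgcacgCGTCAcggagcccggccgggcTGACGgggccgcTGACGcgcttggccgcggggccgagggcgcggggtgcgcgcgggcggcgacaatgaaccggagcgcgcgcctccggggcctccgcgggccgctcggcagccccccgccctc
Nr4a3, chr4:48045055-48045152, plus strand: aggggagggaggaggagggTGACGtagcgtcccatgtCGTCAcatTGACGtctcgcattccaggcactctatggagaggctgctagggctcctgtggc

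Over the whole windows of 250 bases, the half-site was found 4 times each before Nr4a1, Nr4a2 and Nr4a3, 1 of the Nr4a3 sites lying in the exon bases not printed. It was found once each before Klf2 and Klf4 and not before Egr2 and Klf6. Of 32536 promoter windows of the same length, 17.9% held at least 1. The EGR site GCGNGGGCG, on either strand, was in the windows of Nr4a1, Nr4a2, Klf2 and Klf4, against 4.74% of all windows, and it was not in that of Egr2. The CACCC box CCACCC was in those of Nr4a3 and Klf2 (28.1% of all windows) and the ETS site CCGGAA in that of Nr4a1 (12.1%). The full element TGACGTCA, which contains the half-site on both strands, the AP-1 site TGANTCA, the NR4A site AAAGGTCA and the SRF-binding CArG box were in none of the 7, and were in 1.56%, 6.73%, 1.35% and 1.48% of all windows. The member windows were richer in G and C (63.6 to 80.0%) than the median window (52.4%), and the shares were not matched for this. These matches describe letters only.

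Depth ranged from 1880464 to 7508215 reads per library, so that 1 read was worth 0.534 to 2.27 of the normalized reads in which all values below are given. Each member had at least 25 reads in every library. The libraries were of 2 kinds. Y-linked transcripts (Uty, Kdm5d, Eif2s3y, Ddx3y) gave 0 reads in the first pair of wild-type replicates (1 and 2) and the second pair of mfn2-/- replicates (3 and 4), and 807 to 2336 reads in the 4 remaining libraries. In each group this difference coincides with the pair of replicate numbers, and the pair and the Y-linked reads cannot be told apart. Libraries of a pair were also more alike than other libraries of the group by the mean chi-square per gene. In wild-type it was 20.2 and 15.6 within pairs, against 43.3 to 61.4 across pairs. In mfn2-/- ASCs it was 13.2 and 48.5, against 52.2 to 108. By the median chi-square this held in wild-type (8.24 and 6.14, against 11.2 to 14.1) and for mfn2-/- replicates 1 and 2 (5.55). It did not hold for mfn2-/- replicates 3 and 4, at 15.8 against 9.50 to 21.1 across pairs. Whether the libraries of a pair came from separate animals is not given in the labels. The shallowest were wild-type replicate 1 and mfn2-/- replicate 4, and in the latter 9646 genes had a read, against at least 12613 elsewhere.

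The targeted gene was checked first. Mfn2 measured 202 to 245 in the wild-type and 104 to 172 in the mfn2-/- libraries without overlap, and its log2 change of -0.88 had a limma adjusted p of 0.0848. Of 7 muscle stem cell markers, 3 were called higher in mfn2-/- (Myod1, Vcam1, Sdc4), and Pax7, their defining gene, was 582 or more in every library. The summed level of the 7 was 6535 to 10391 in wild-type and 20598 to 29538 in mfn2-/- libraries, without overlap. Markers of other cells moved with genotype. The summed level of 9 fibroadipogenic markers was 147243 to 183974 in wild-type and 5131 to 9316 in mfn2-/- libraries, with 7 called lower. That of 8 tenocyte markers was 36938 to 58437 against 306 to 407, with all 8 called lower, and Kera, Tnmd and Chad were at 0 in mfn2-/- replicates 3 and 4. Of 6 mural markers, 2 were called lower (2206 to 3269 against 922 to 1324), and limma called 0 of 7 endothelial (951 to 1329 against 1070.0 to 1654) and 0 of 5 macrophage markers tested (45.9 to 152 against 101 to 155), with 0 in each list at an unadjusted p under 0.05 and 0 by edgeR and DESeq2. The part of these cells in the results for the members was not tested. In such bulk samples, fewer cells of a type and less RNA per cell cannot be told apart.

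The Egr family came first in abundance. Egr1, the ERK-induced founder of the family, measured 27523, 29004, 20919.7 and 22343 in wild-type replicates 1 to 4 and 45072, 39161, 16819 and 12151 in mfn2-/- replicates 1 to 4. The mfn2-/- libraries with Y-linked reads stood above every wild-type library and those without below every one, so that the SD was 3919.6 in wild-type and 16247 in mfn2-/- (n = 4 each). Egr1 ranked between place 7 and place 24 among all genes of its library, the lowest place being that of mfn2-/- replicate 4. The limma adjusted p of its change was 0.989 (exact permutation p = 1).

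Egr2, which drives myelination in Schwann cells and induces the brakes on T cell activation, measured 1094, 1004, 724 and 747 in wild-type and 2146, 2115, 1226 and 1327 in mfn2-/- replicates 1 to 4. Every mfn2-/- library was above every wild-type library, and within each group the pair that was higher for Egr1 was also higher for Egr2. Limma gave a log2 change of 0.91 (SE 0.24) with an adjusted p of 0.0274, with p = 0.0286 by the exact permutation test, the smallest possible with 4 against 4 libraries. This call was lost when wild-type replicate 3 or 4 or mfn2-/- replicate 1 or 2 was left out, with limma adjusted p from 0.0806 to 0.0875.

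Egr1 and Egr2 did not keep one ratio. Egr1 was 25.2 to 29.9 times Egr2 in the wild-type libraries, and 21.0, 18.5, 13.7 and 9.16 times in mfn2-/- replicates 1 to 4, without overlap between the groups. This ratio contains the higher Egr2 values given above and was not tested by itself. Egr3, without which muscle spindles do not form, measured 237, 25.9, 48.2 and 96.7 in wild-type and 201, 128, 92.9 and 53.1 in mfn2-/- libraries, and per kilobase of exon it was the lowest member in both groups. The mfn2-/- range lay inside the wild-type range, and the log2 change of 0.53 (SE 0.67, limma adjusted p 0.670) was within the spread between replicates.

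**Figure D1:**
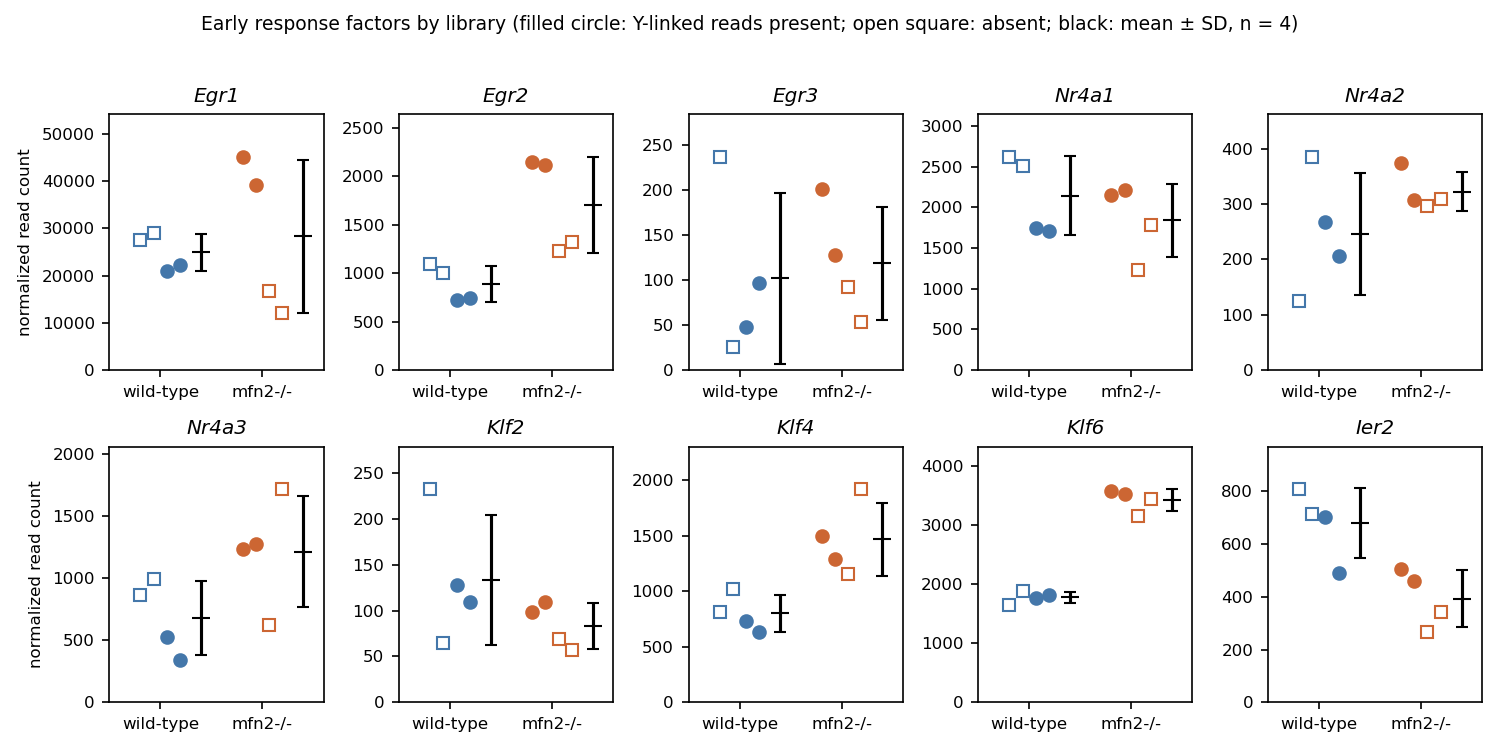
Normalized read count of each member (vertical axes, linear and from 0) in the 4 wild-type and 4 mfn2-/- libraries. Filled circles are libraries with and open squares libraries without Y-linked reads, and black bars are the mean ± SD of 4. Klf6, Klf4 and Egr2 show no overlap between the groups, and the mfn2-/- circles of Egr1, at 45072 and 39161, stand far above the squares, at 16819 and 12151.

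Among the nuclear receptors, none passed the test over all 8 libraries. Nr4a1, the receptor also called Nur77, measured 2618, 2503, 1749 and 1710.0 in wild-type and 2148, 2213, 1231 and 1779 in mfn2-/- libraries. The groups overlapped, with a log2 change of -0.23 (SE 0.23) and an adjusted p of 0.581 by limma. Nr4a2, or Nurr1, which dopamine neurons need, measured 125, 385, 267 and 207 in wild-type and 374, 307, 296 and 309.7 in mfn2-/- libraries. The wild-type libraries spanned the mfn2-/- ones, with a log2 change of 0.49 (SE 0.32) and an adjusted p of 0.380 by limma.

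Nr4a3, or Nor1, the receptor induced in muscle by exercise, measured 866, 989, 525 and 343 in wild-type and 1233, 1274, 624 and 1713 in mfn2-/- libraries. All mfn2-/- libraries but replicate 3 were above all wild-type ones. Its mean was 1.78 times the wild-type mean, nearly as much as for Klf4, but with a log2 change of 0.86 and an SE of 0.35 the limma adjusted p was 0.150. Library weights brought Nr4a3 past the threshold (log2 change 1.27, limma adjusted p 0.000676). They were 0.345, 0.611, 2.07 and 2.64 for wild-type and 1.53, 3.75, 0.908 and 0.167 for mfn2-/- replicates 1 to 4. Leaving out mfn2-/- replicate 4, the highest library for Nr4a3, lowered the change to 0.66 (limma adjusted p 0.310).

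Of the 3 Klf genes, 2 were called. Klf6, a widely expressed factor induced by injury, measured 1653, 1879, 1757 and 1818 in wild-type and 3565, 3514, 3154 and 3434 in mfn2-/- libraries. The groups were far apart and each was narrow, with means of 1777 ± 96.3 and 3417 ± 183 (SD, n = 4), with a log2 change of 0.94 (SE 0.16), an adjusted p of 0.00191 by limma and p = 0.0286 by the exact permutation test. It was called with any single library left out, and in 21 of 23 alternative settings over both kinds of library. The exceptions were the fit without the intensity trend (limma adjusted p 0.0552) and the fit on libraries averaged by pair (0.132).

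Klf4, a pluripotency factor and a brake on the growth of many cells, measured 816, 1020.4, 730.1 and 637 in wild-type and 1498, 1289, 1156 and 1915 in mfn2-/- libraries. There was no overlap, and the highest value was that of mfn2-/- replicate 4, as for Nr4a3. Klf4 thus changed by 0.87 on the log2 scale (SE 0.21), with an adjusted p of 0.0209 by limma and p = 0.0286 by the exact permutation test. Without wild-type replicate 3 or 4 or mfn2-/- replicate 1 the limma adjusted p was 0.0653, 0.0714 and 0.0546.

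Klf2, best known from endothelium under flow and from resting T cells, measured 232, 64.3, 128 and 109.5 in wild-type and 98.7, 109, 68.5 and 56.8 in mfn2-/- libraries. The groups overlapped, with a log2 change of -0.58 (SE 0.48) and an adjusted p of 0.495 by limma. The summed endothelial markers, given above, overlapped between the groups too. Ier2, a short-lived nuclear protein induced with the Egr genes, measured 807, 716, 702 and 491 in wild-type and 505, 459.8, 265 and 345 in mfn2-/- libraries. Only wild-type replicate 4 came down into the mfn2-/- range. Its log2 change of -0.81 (SE 0.25, limma adjusted p 0.0617, exact permutation p = 0.0571) did not pass, whereas DESeq2 (-0.78, adjusted p 0.0457) and limma after quantile normalization (-0.87, adjusted p 0.0353) called it.

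Over the family, 6 of 10 log2 changes were positive, and the median was 0.51, beside -0.16 over all genes tested. At an unadjusted p under 0.05, 5 members passed with each of limma, edgeR and DESeq2, beside 24.8%, 22.5% and 25.5% of all genes, and 3, 3 and 4 passed after adjustment. The count of called members was 0 when limma was run without the intensity trend (4 members and 21.6% of all genes at an unadjusted p, 633 genes called) and 0 when libraries were averaged by pair, a setting chosen after the data were seen (5 members and 17.1% of all genes at an unadjusted p, 522 genes called). It was 1, Klf6 alone, without wild-type replicate 3, wild-type replicate 4 or mfn2-/- replicate 1.

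**Figure D2:**
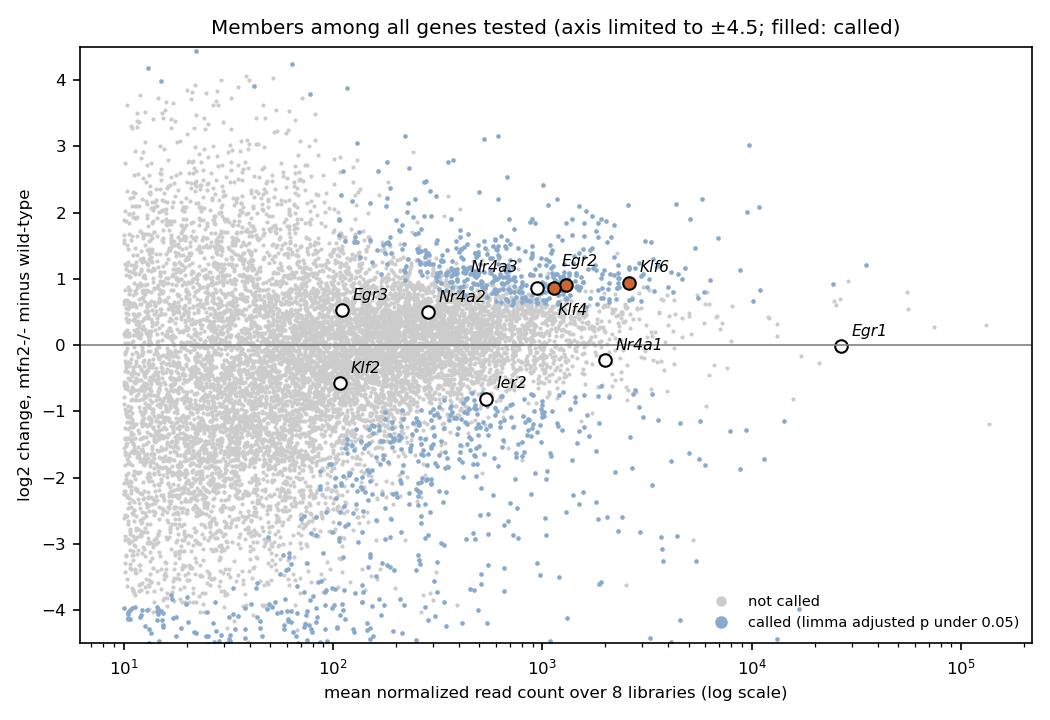
Log2 change of mfn2-/- over wild-type ASCs (vertical axis, limited to 4.5 either way) against the mean normalized read count over 8 libraries (log axis) for all genes tested. Blue dots are genes called by limma, ringed circles are the members and orange circles the members called. The 3 called members lie among the moderately abundant genes near a log2 change of 0.9, and Egr1 lies near 0 at the abundant end.

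Levels of different members were compared per kilobase of exon. In wild-type ASCs Egr1 was first, at 5564 ± 874 normalized reads per kilobase (SD, n = 4), followed by Nr4a1 (611), Ier2 (446), Klf6 (405), Klf4 (263), Egr2 (263), Nr4a3 (114), Klf2 (72.3), Nr4a2 (60.6) and Egr3 (23.1). Of these neighbors, Egr1 and Nr4a1, Klf6 and Klf4, and Egr2 and Nr4a3 had ranges that did not overlap, and the others overlapped. In mfn2-/- ASCs Egr1 (6312 ± 3623) was followed by Klf6 (778), Nr4a1 (525), Egr2 (501), Klf4 (480.3), Ier2 (259), Nr4a3 (202), Nr4a2 (79.3), Klf2 (45.1) and Egr3 (26.9). The ranges overlapped between Nr4a1, Egr2 and Klf4, between Ier2 and Nr4a3 and between Klf2 and Egr3. The members together took 0.680 to 0.888% of the normalized reads of a wild-type library, and 1.38, 1.25, 0.670 and 0.555% in mfn2-/- replicates 1 to 4. Egr1 made up 75.9 to 78.4% of the members' reads in wild-type, and 79.3, 77.4, 67.5 and 52.6% in mfn2-/- replicates 1 to 4.

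The pairs of libraries were then compared. In wild-type ASCs the pair without Y-linked reads was above the pair with them, without overlap, for 6 members (Egr1, Egr2, Nr4a1, Nr4a3, Klf4 and Ier2) and below it for 0, beside 22.2% of all genes above and 24.3% below. In mfn2-/- ASCs the order by Y-linked reads was the other way. The pair that had them was higher for 7 members (Egr1, Egr2, Egr3, Nr4a1, Klf2, Klf6 and Ier2) and lower for 0. Beside these, 26.5% of all genes were higher and 18.8% lower. By replicate number the order was the same, with replicates 1 and 2 the higher pair in both genotypes. Members rise and fall within the same libraries and are not independent of each other, so these counts are a description. Beside genotype, limma called an effect of the Y-linked reads as such for 0 members and for 0.221% of all genes. At an unadjusted p under 0.05 it was found for 0 members and for 10.3% of all genes. Differences of opposite order in the genotypes, as above, cancel in this term, so it cannot show whether the pairs were alike.

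Within the libraries with Y-linked reads, 2 per group, limma called 5 members, all higher in mfn2-/- (Egr2 by a log2 change of 1.53, Nr4a3 by 1.56, Klf4 by 1.03, Klf6 by 0.99 and Egr1 by 0.96), where 21.3% of all genes were called (1178 genes higher and 1324 lower). Within the others it called 0 members and 1.51% of all genes (5 members and 15.2% of all genes at an unadjusted p under 0.05). The fitted changes there were -0.98 for Egr1 (limma adjusted p 0.0575), 0.28 for Egr2, 0.16 for Nr4a3, 0.70 for Klf4 and 0.90 for Klf6 (limma adjusted p 0.0743). The SE of Klf6 was 0.11 in the first and 0.18 in the second, so its change was of a like size in both.

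**Figure D3:**
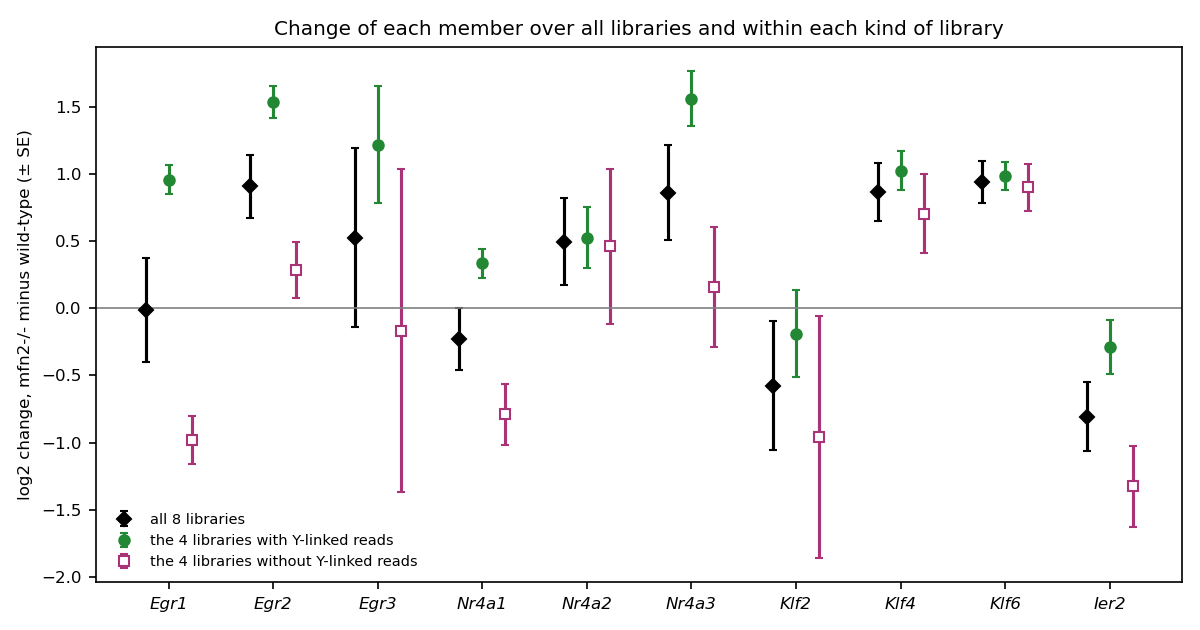
Log2 change of each member (vertical axis, mfn2-/- minus wild-type, ± SE) over all 8 libraries (black), over the 4 with Y-linked reads (green) and over the 4 without (purple squares). The green points lie above the purple ones for all 10 members, by 1.94 for Egr1 and by 0.08 for Klf6.

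The difference between the pairs was tested as an interaction term over all genes. Y-linked reads were in replicates 3 and 4 of wild-type and in replicates 1 and 2 of mfn2-/- ASCs. A shift of replicates 1 and 2 against 3 and 4 shared by both genotypes would therefore give the same term. It cannot be told apart from an effect of genotype that differs with the Y-linked reads. The change in the libraries with Y-linked reads exceeded that in the others by 1.94 for Egr1 (SE 0.20, limma adjusted p 0.00163) and by 1.25 for Egr2 (SE 0.22, limma adjusted p 0.0233), where 1.47% of all genes were called and 1.21% with a positive sign. Nr4a1 had a difference of 1.12 (limma adjusted p 0.0652), Nr4a3 of 1.40 (0.343), Egr3 of 1.38 (0.698) and Ier2 of 1.04 (0.276). Those of Klf4 (0.32), Klf6 (0.08), Nr4a2 (0.06) and Klf2 (0.77) had limma adjusted p from 0.728 to 0.979. The sign was positive for 10 of 10 members, beside 54.0% of all genes tested. The error of this term rests on the 2 libraries of each pair. These were more alike than other libraries of the group, except mfn2-/- replicates 3 and 4 by the median chi-square. If the libraries of a pair are from 1 animal, the term has no replication between animals. When the intensity trend was left out, limma called 0 genes of 11754 (1191 at an unadjusted p under 0.05, with an adjusted p of 0.273 for Egr1 and 0.416 for Egr2), while edgeR on the recovered reads called Egr1, Egr2 and Nr4a1 among 175 genes. Both of these fits were chosen after the data were seen.

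Genes of the wider pathway were taken from lists. Of 27 tested AP-1 and other immediate early genes, 7 were called higher and 3 lower, with a median log2 change of 0.62. The median was 1.17 in the libraries with Y-linked reads, where 23 were called, and -0.12 in the others, where 3 were called, and over all libraries the count of 10 became 24 with library weights, 5 with libraries averaged by pair and 4 without the intensity trend. The higher ones were led in abundance by Fosl2 (AP-1 subunit, 2268 ± 1021 against 4962 ± 1506, log2 change 1.20, limma adjusted p 0.0300), Btg1 (an antiproliferative factor, 1.13, 0.00881), Ier5 (a stress-induced partner of heat shock factor, 1.47, 0.0140) and Phlda1 (0.86, 0.0128). The lower ones were the matricellular genes Cyr61 (6313 ± 386 against 2807 ± 145, -1.17, 0.000551) and Ctgf (4100.3 ± 715 against 1251 ± 626, -1.85, 0.00230), both targets of YAP, and Ptgs2, the inducible cyclooxygenase, from 571 ± 147 to 12.2 ± 8.27, with 0 in mfn2-/- replicate 4. The fibroadipogenic and tenocyte markers fell with them, as given above. The AP-1 subunits Jun (22799.9 ± 1605 against 19227 ± 4061, -0.27, limma adjusted p 0.521) and Fos (19724 ± 2613 against 11808 ± 4297, -0.81, 0.0813) were not called. Of these, the call of Fosl2 was lost without wild-type replicate 3 or 4 or mfn2-/- replicate 1 or 2 (limma adjusted p 0.0772 to 0.0960), those of Ier5 and Phlda1 without wild-type replicate 3 (0.0503 and 0.0507), and Fos passed without mfn2-/- replicate 1 (0.0486). The interaction with Y-linked reads was called for 13 of the 27 genes, beside 1.47% of all genes, and for 0 genes without the intensity trend.

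Of 14 feedback inhibitors tested, 5 were called higher and 0 lower, and the median was 0.71. They include both EGR co-repressors. Nab1 measured 537, 732, 595 and 649 in wild-type and 1572, 1637, 1359 and 1268 in mfn2-/- libraries, and it changed by 1.22 on the log2 scale (SE 0.18), with an adjusted p of 0.000971 by limma. Nab2, a direct target of EGR1, measured 105, 246, 98.8 and 200.3 in wild-type and 414, 333, 598 and 506 in mfn2-/- libraries, and changed by 1.58 (SE 0.34), with an adjusted p of 0.0104 by limma. Both stood above wild-type in every mfn2-/- library, including those in which Egr1 was lowest, and their change was 1.37 and 1.39 in the libraries with Y-linked reads and 1.07 and 1.77 in the others. The remaining 3 were Spred1, an inhibitor of RAS signaling (1.45, limma adjusted p 0.000583), and the RNA decay factors Zfp36l1 (0.98, 0.0269) and Zfp36l2 (0.96, 0.00284). The phosphatase gene Dusp1 (2263 ± 393 against 1601 ± 738, -0.61, 0.223) and Zfp36 (1408 ± 189 against 1199 ± 729.8, -0.47, 0.490) were not called. Zfp36l1 lost its call without wild-type replicate 2, 3 or 4 or mfn2-/- replicate 1 or 2 (0.0544 to 0.0769), and the other 4 kept theirs with any library left out.

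**Figure D4:**
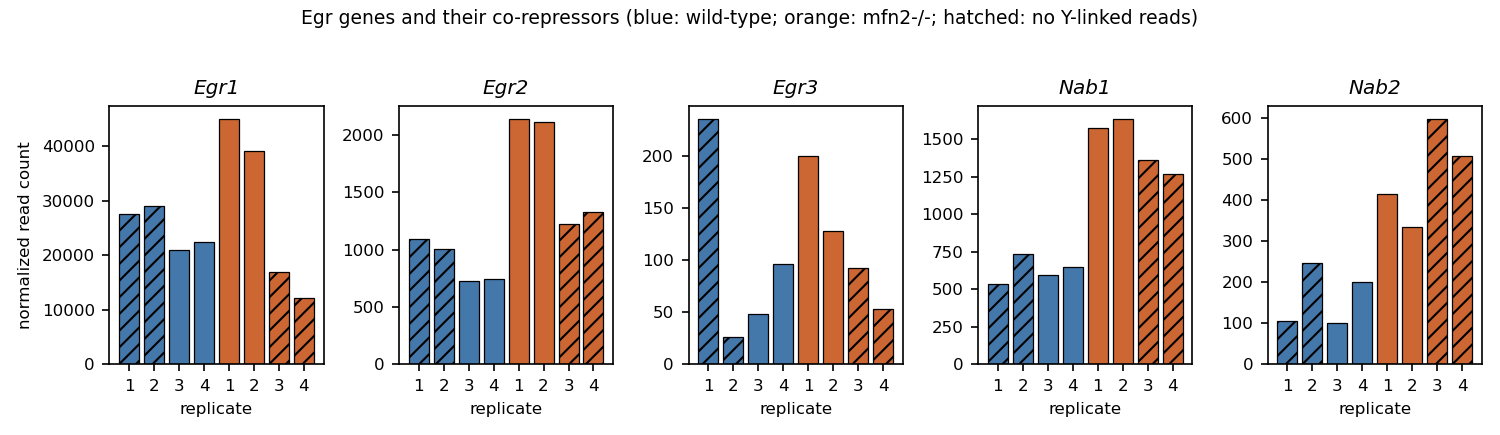
Normalized read counts (vertical axes from 0) of the Egr genes and of the co-repressors Nab1 and Nab2 in wild-type (blue) and mfn2-/- (orange) replicates 1 to 4, with libraries without Y-linked reads hatched. Nab1 is at 1268 or more in every mfn2-/- library and at 732 or less in wild-type, whereas Egr1 in mfn2-/- replicates 3 and 4 is below wild-type.

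The routes that switch the members on followed. Of 18 upstream activators tested (SRF with its partners, ERK, RSK and CREB with its coactivators), 1 was called higher and 0 lower, beside the 10.4% of all genes, and the median was 0.26. The count was 12 with library weights, 9 within the libraries with Y-linked reads, where 21.3% of all genes were called, 0 within the others, 6 without the shallowest library of each group and 0 to 3 with 1 library left out. The gene called was the CREB coactivator Crtc2 (139 ± 41.6 against 300.3 ± 76.6, log2 change 1.11, limma adjusted p 0.0436), which edgeR and DESeq2 also called. With 1 library left out, the call held without wild-type replicate 1 or mfn2-/- replicate 3 and was lost in the other 6 fits (0.0692 to 0.123). The most abundant that were not called were the SRF partner Elk4 (694 ± 353 against 921 ± 155, 0.51, 0.296) and the kinase gene Rps6ka3 (365 ± 41.2 against 629 ± 241, 0.71, 0.127). Elk4 passed without wild-type replicate 1 (0.0371), and Rps6ka3 passed without mfn2-/- replicate 4 (0.0241). Of 8 genes of the MEK5-ERK5 arm limma called 0 (1 at an unadjusted p under 0.05, and 0 by edgeR and DESeq2), with Map3k2 at 0.55 (limma adjusted p 0.108, and 0.0377 without mfn2-/- replicate 4) and Mef2a at -0.49 (0.407). Of 10 other Klf genes tested limma called 0 (2 at an unadjusted p under 0.05), edgeR called 0 and DESeq2 called Klf12, named after its values were seen. Limma gave Klf9, a target of glucocorticoids, a log2 change of 0.19 (0.596) and Klf13 one of 0.24 (0.556). Of 6 metabolic targets of NR4A proteins in muscle limma called 0 (0 at an unadjusted p under 0.05, and 0 by edgeR and DESeq2), with Pygm, the muscle glycogen phosphorylase, at -0.29 (0.719) and Phka1 at -1.31 (0.305).

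Of 14 heat shock genes, which respond to unfolded protein, 3 were called higher and 0 lower, with a median of 0.68. They were Hsph1 (20857 ± 7033 against 49282 ± 19313, log2 change 1.22, limma adjusted p 0.0411), Hspb1 (1.13, 0.0139) and Hspe1 (1.07, 0.0199), while Hspa8 (0.55, 0.300) and Hspa1b (0.96, 0.0534) were not called. Hspa1b and Hspa1a are near-identical copies, and several of these genes have processed copies, so that their separate values are uncertain. The count of 3 was 0 without wild-type replicate 3 or 4, 1 without mfn2-/- replicate 2 and 5 without mfn2-/- replicate 3, and DESeq2 called 7. The median of this list was 1.35 in the libraries with Y-linked reads and 0.00 in the others. The interaction was called for 11 of its 14 genes, beside 1.47% of all genes, and for 0 genes without the intensity trend. The heat shock transcripts thus moved with the same pairs of libraries as Egr1 and Egr2, and their part in that result was not tested.

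**Figure D5:**
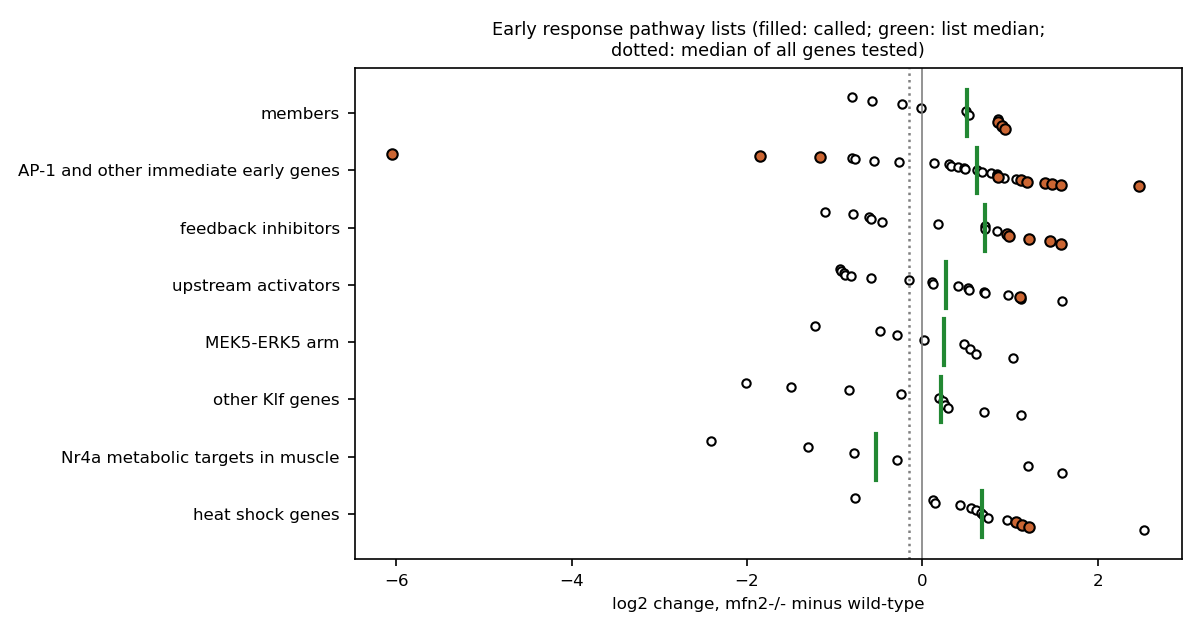
Log2 change of mfn2-/- over wild-type ASCs (horizontal axis) for each tested gene of the members and of 7 pathway lists. Orange points were called by limma, white points were not, green bars are list medians, and the dotted line is the median of all genes tested, -0.16. Called genes of the feedback inhibitors and heat shock genes all lie to the right, and the leftmost point is Ptgs2.

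The genes most alike in pattern were found by the root mean square distance, over 8 libraries, between a gene's centered log2 values and the median profile of the members. That profile was highest in mfn2-/- replicate 1 (0.51) and lowest in wild-type replicate 3 (-0.36). Of 5575 candidate genes with a mean of at least 100, the closest were Klf9 (distance 0.0953), Junb (0.117), Glul (0.125), Ttbk2 (0.131), Dnaja1 (0.135), Syne2 (0.137), Actn4 (0.138), Sun2 (0.138), Mll1 (0.140) and Mtap7d1 (0.143), beside a median of 0.579 over the candidates. Junb encodes an AP-1 subunit and Dnaja1 a cochaperone, and Glul is the glutamine synthetase. Limma called 0 of the 10 between the genotypes, with adjusted p of 0.270 or more. The members themselves lay at 0.284 (Nr4a1) to 0.901 (Egr3) from their own median profile, so that single members were farther from it than these genes.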

How the data were processed

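Stranded libraries were made from the total RNA of sorted cells with a pico input kit. Per the labels, the authors used Trim Galore, HISAT2, featureCounts and DESeq2 with the mm9 build, versions not given in the sources used here. The deposited values are a signal, the read counts of each gene divided by 1 size factor per library. In every column 100% of values were whole multiples of what 1 read is worth (tolerance 0.01), and whole reads were recovered for depth and count tests. Intervals and p-values cover no loss of molecules before amplification, since molecular identifiers were not used.

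Genes with a mean of at least 10 (11754) were tested on log2(value + 1) by limma (version 3.58.1, under R 4.3.3) over all 8 libraries, with genotype as the only term, its trend of variance with intensity, and two-sided Benjamini-Hochberg adjustment at 0.05. Such log2 changes understate those of weak genes. Genes past this threshold are called. Single genes were also compared with two-sided exact permutation tests. The interaction of genotype and Y-linked reads was a further limma fit. edgeR 4.0.16 and DESeq2 1.42.0 were run on the recovered reads. These 3 tools and the limma interaction were tested on simulated data, with a log2 change of 2 planted in 200 genes. Limma recovered 32.5% of these, edgeR 33%, DESeq2 47% and the interaction term 1.5%, so each missed most of them. A gene that was not called may therefore have changed. DESeq2 made more false calls (26.56% of its calls) than limma (1.52%) and edgeR (4.35%). The simulated libraries were drawn independently, with the spread estimated under genotype alone and without the pairs seen in these libraries. These shares may therefore not hold for the fits above, least of all for the interaction term. The other alternative fits were not simulated. Replicate numbers were not used to pair the samples in the main fit. Python 3.11.15 was used for tables. Exon lengths are from GENCODE M21 (GRCm38), and upstream sequences from RefSeq (GRCm38.p6), while the values were counted on mm9.

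The members and lists were chosen with earlier results of these data known. All members are named, and of each list up to 6 called genes and the 2 most abundant that were not called. Markers and Ptgs2 were named beside this rule.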

Additional observations from a re-analysis of the deposited data

Results flagged for a closer look

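In 82 groups of 4 libraries, 1 library stood apart from the other 3 by more than the 95% critical value of Dixon's ratio in 2, where chance gives about 4. Zfp36l2 was 1779 in mfn2-/- replicate 2 against 2140.3 to 2214 in the other mfn2-/- libraries, and Spred1 was 1186 in wild-type replicate 2 against 721 to 747.

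The change with genotype differed between the libraries with and without Y-linked reads, by the limma interaction term, for 13 of 39 named genes. Over all genes tested the share was 1.47%, and without the intensity trend 0 genes were called. For the members Egr1 (difference 1.94) and Egr2 (1.25) the values stand in the report. Among AP-1 and other immediate early genes, the difference was 1.92 for Fosl2 (log2 change 2.16 with and 0.24 without Y-linked reads), -1.76 for Ctgf (-2.73 and -0.97), 1.23 for Btg1 (1.74 and 0.51), 1.87 for Ier5 (2.41 and 0.54) and 1.23 for Fos (-0.19 and -1.42). Among feedback inhibitors it was 1.62 for Dusp1 (0.20 and -1.42) and 1.93 for Zfp36 (0.50 and -1.43). Among heat shock genes it was 1.88 for Hsph1 (2.16 and 0.28), 1.33 for Hspb1 (1.80 and 0.47), 1.09 for Hspa8 (1.10 and 0.00) and 1.33 for Hspa1b (1.62 and 0.30). The limma adjusted p of these ran from 0.000267 for Hsph1 to 0.0324 for Zfp36. Each kind of library has 2 per group, and the kind cannot be told apart from the pair of replicate numbers. A shift of replicates 1 and 2 against 3 and 4 shared by both genotypes would give the same differences.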

How the results depend on the processing

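Precision was limited by 4 libraries per group and by depth in wild-type replicate 1 and mfn2-/- replicate 4. The 1217 genes called became 633 without the intensity trend, 3037 with library weights, 2502 within the libraries with Y-linked reads, 177 within those without, 522 with libraries averaged by pair and 670.0 to 1307 when 1 library was left out. The 3 members called became 0, 3 plus Nr4a3 with weights, 5, 0, 0 and 1 to 3. The higher share of calls went from 38.5% to 17.9% without the trend. DESeq2 called 1738 genes and edgeR 1158. The replicate number as a block left 3 members called among 1043 genes. Over all genes tested, same-numbered libraries did not deviate together, with correlations of -0.11 to 0.04. For Egr1, Egr2, Nr4a1 and Ier2, however, replicates 1 and 2 were above 3 and 4 in both genotypes without overlap. Whether same-numbered libraries were handled together was not tested. The 2 members with an interaction became 1 with quantile normalization (Egr2 adjusted p 0.0557) and 0 without the trend.

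The sign of Egr1 turned with equal totals (0.035), the upper quartile (0.033), library weights (0.62), edgeR (0.29), DESeq2 (0.18), without the 2 shallowest libraries (0.38) and within the libraries with Y-linked reads (0.96), and with 1 library left out it ran from -0.31 to 0.33. That of Egr3 turned within the libraries without Y-linked reads (-0.17), and that of Nr4a1 with library weights (0.12) and within the libraries with Y-linked reads (0.33). The cause was not tested. No sign of the other 7 members turned in any of 25 settings. Quantile normalization moved the median of all genes from -0.16 to 0.13.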
